A study of Homo sapiens with 6 samples.

Results

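Collagen chain genes were followed across 3 populations of BT474 cells, an established line of ER-positive, HER2-positive breast carcinoma. Every probe of the array whose gene name had the form of a collagen alpha chain (COL, a type number, A and a chain number) was taken, without regard to its values. This gave 64 probes of 44 gene names, of 58201 non-control probes under 43317 gene names. The 6 samples were 2 one-color Agilent arrays for each group. Control BT474 cells carried an empty pcDNA3.1 plasmid, BT474-Var1 cells carried the long variant 1 of the long non-coding RNA NR2F1-AS1 in pcDNA3.1/Hygro(+), and BT474-Var4 cells carried the short variant 4 in pcDNA3.1-P2A-eGFP. All 3 groups were nucleofected, and the study compared them to learn what each variant does in cells of this kind. The methods name 2 empty plasmids as negative controls, and which of them the Control arrays stand for is not stated. Control and variant cells alike underwent antibiotic selection and were then kept in medium without antibiotic. Both variant populations had grown back from a few surviving cells, so each is one selected population. The arrays are replicates A and B of a group, and no label says that they came from separate cultures, so the p-values below measure the spread between these samples, which may be technical.

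Collagens are built from 3 alpha chains that wind into a triple helix, and each chain carries glycine at each turn of a repeating unit of residues, Gly-X-Y. Fibrillar collagens form the cables of connective tissue and are made mostly by fibroblasts, while type IV collagen forms the sheet of the basement membrane under epithelia and type VII collagen anchors that sheet to the stroma below. FACIT collagens (fibril-associated collagens with interrupted triple helices) sit on the surface of fibrils, transmembrane collagens span the plasma membrane, and multiplexins such as type XVIII are basement membrane proteoglycans. Epithelial breast cancer cells lie on such a matrix and supply a part of it themselves.

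The glycine repeat can be read in the probes. Of the 64 collagen probes, 4 held at least 4 codons of the form GGN (glycine) in a row at 9-base spacing, a pattern found in 41 of all 58201 probes (0.0704%). Such a probe reports the helix-coding part of its transcript, and for COL16A1 and COL20A1 it did not give the same values as the other probe of the gene, which is why these sequences are shown. The first 2 of the sequences below belong to those genes, and the third is the COL9A1 probe that was well above background on all 6 arrays. The remaining probe of the 4, A_32_P80850 of COL14A1, is not printed, and it is described below beside the other COL14A1 probe. They are given as the array holds them, 5′ to 3′, with the glycine codons of the run in capitals.
COL16A1 probe A_33_P3210647 (hg19, chr1:32148536-32148595, minus strand): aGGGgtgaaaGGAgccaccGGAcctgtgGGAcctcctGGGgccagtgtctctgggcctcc
COL20A1 probe A_33_P3395952 (hg19, chr20:61960951-61961010, plus strand): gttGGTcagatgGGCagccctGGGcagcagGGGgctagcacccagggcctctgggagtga
COL9A1 probe A_24_P311856 (hg19, chr6:70926717-70926776, minus strand): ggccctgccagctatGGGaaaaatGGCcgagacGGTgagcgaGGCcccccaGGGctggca
The COL20A1 sequence reaches an in-frame stop codon at base 58. The probes of COL11A2 named A_23_P42322 and A_33_P3216442 have the 22 bases CCGCAGATGGCTGGAATATTAA in common, so they are not independent readings of that gene.

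A second sequence bears on type IV collagen, whose genes lie in head-to-head pairs. In RefSeq (GRCh38.p14) the start of COL4A1 on the minus strand (chr13:110307157) and that of COL4A2 on the plus strand (chr13:110307284) are 127 bases apart. The 126 bases between them lie upstream of both genes and are shown because the levels of the pair moved in opposite directions between the variant populations, as described with type IV collagen. They are written 5′ to 3′ on the plus strand, with one CCAAT and one GGGCGG in capitals (bases 22 to 26 and 62 to 67).
COL4A1 and COL4A2 (GRCh38.p14, chr13:110307158-110307283): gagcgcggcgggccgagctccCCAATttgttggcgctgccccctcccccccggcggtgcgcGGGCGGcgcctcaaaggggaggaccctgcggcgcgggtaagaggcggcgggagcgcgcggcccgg
Searched on both strands, CCAAT was found in 21.1% and GGGCGG in 34.6% of windows of 126 bases in the 35116 promoters of the RefSeq table, so each is common.

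A level below is the log2 of the processed intensity less the 75th percentile of the same array, so 0 is that percentile. A probe was tested where the software had marked it well above background on each of the 2 arrays of a group, in 1 group or more. This held for 36 collagen probes of 26 genes, 56.2% of the collagen probes against 54.7% of all probes. Another 25 collagen probes (39.1%) were above background on no array, against 35.9% of all probes, and 30 were above background on all 6 arrays. The arrays had 47.6% to 57.5% of their probes above background, the fewest on BT474-Var4 B, and replicate arrays differed with an SD of 0.20 to 0.25 on the log2 scale.

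Most classes held detected and undetected genes, and several partner chains were on different sides of the limit. Among fibrillar genes 7 of 11 had a tested probe, and COL1A2, COL3A1, COL5A3 and COL11A1 had none. COL1A1, which encodes the first chain of type I collagen, was above background on all 6 arrays, while the only COL1A2 probe, for its partner chain, was above it on none. In type IV, COL4A1, COL4A2, COL4A4 and COL4A5 were tested and COL4A3 and COL4A6 were not. Of the beaded-filament genes COL6A1 alone was tested, and COL6A2, COL6A3, COL6A5 and COL6A6 were not, although 1 of the COL6A2 probes passed the mark on 1 Control array. COL10A1 was the one tested gene of the short-chain networks, beside COL8A1 and COL8A2. COL19A1, COL21A1 and COL22A1 of the 10 FACIT genes, COL17A1 and COL25A1 of the 4 transmembrane genes and COL15A1 of the 2 multiplexins had no tested probe. COL26A1 and COL28A1, which are in none of these classes, were both tested. Below this limit a transcript can be present but its level cannot be read.

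**Figure D1:**
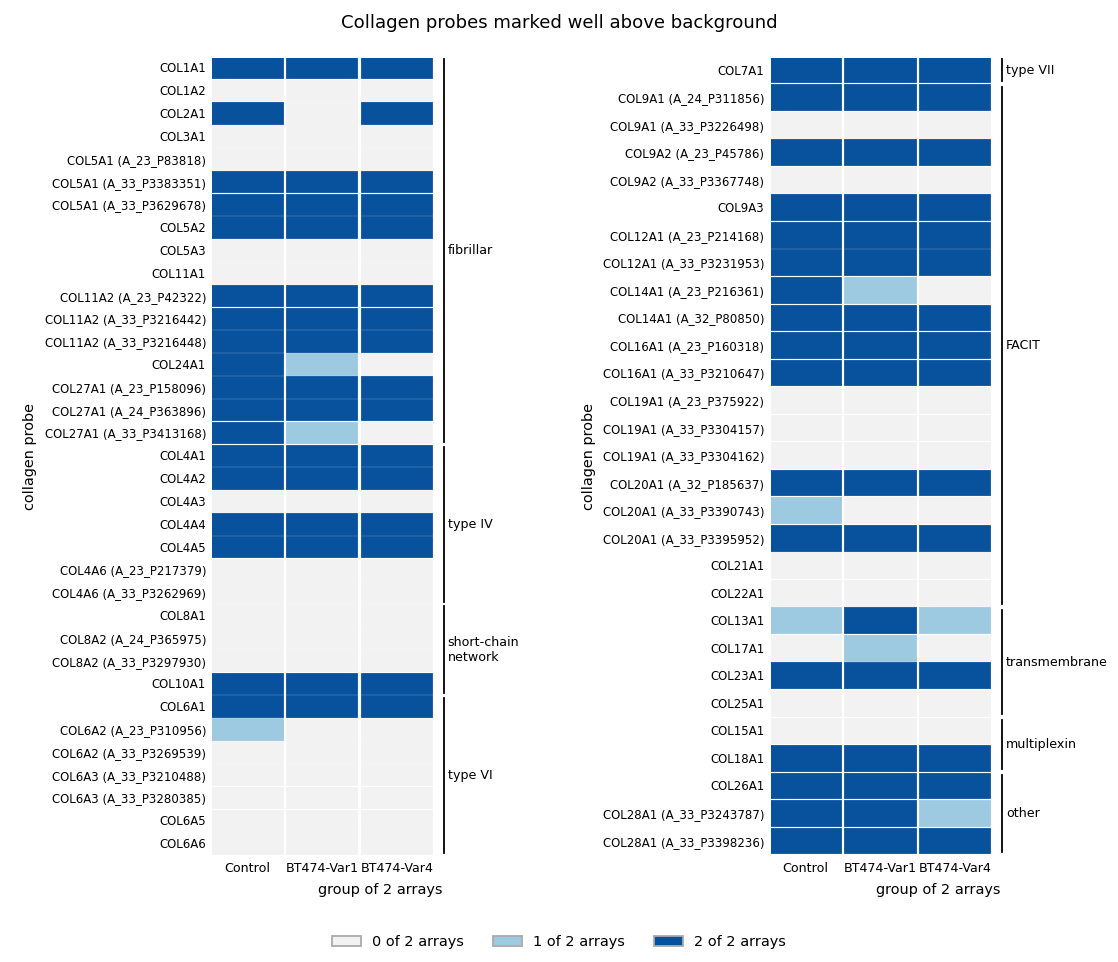
Detection of the 64 collagen probes. Each row is a probe, grouped by collagen class, each column a group of 2 arrays, and the color gives on how many of the 2 arrays the probe was marked well above background; 30 probes are dark in all 3 columns and 25 are blank in all 3.

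The luminal identity of the cells was checked with fixed marker lists. All 13 luminal and BT474 genes, among them ERBB2, ESR1, GATA3, FOXA1 and KRT8, were above background on all 6 arrays, with a log2 of their summed level of 11.36 to 11.78. PGR, the progesterone receptor, was called lower in BT474-Var4 cells at both probes (-1.22 and -1.32; adjusted p = 0.00261 and 0.00292), and XBP1, a secretory-pathway factor, fell there by 0.81 (adjusted p = 0.00331). ESR1, the estrogen receptor, fell there by 0.47 at its brightest probe (adjusted p = 0.0176), and its other probes were -0.85 and -0.06 (adjusted p = 0.0232 and 0.618). FOXA1 at its brightest probe and SPDEF fell in BT474-Var4 cells by 0.40 and 0.33 (adjusted p = 0.0107 and 0.0317). No luminal gene was called in BT474-Var1 cells at its brightest probe. EPCAM, FOXA1 and CDH1 fell there by 0.66, 0.50 and 0.47 (adjusted p = 0.00522, 0.00528 and 0.00586), while KRT19, KRT8 and ERBB2 rose by 0.62, 0.32 and 0.22 (adjusted p = 0.00444, 0.0224 and 0.0295). PGR fell in BT474-Var1 cells too, by 0.29 and 0.48 at its probes (adjusted p = 0.0187 and 0.00868). Of 12 fibroblast and stromal genes, PDGFRA, LUM, THY1, POSTN, FBN1, TCF21 and PRRX1 were above background on no array, while FBLN1, MFAP5 and PDGFRB were on all 6 at their brightest probe. The other PDGFRB probe, A_23_P421401, was above background on no array. The log2 of the summed level of this list was 3.59 and 3.63 in Control, 2.98 and 2.97 in BT474-Var1 and 3.30 and 3.33 in BT474-Var4 cells. Most of it came from FBLN1, which read 3.44 and 3.47, then 2.68 and 2.65, then 3.07 and 3.11 at its brightest probe. FBLN1 fell there by 0.79 and 0.36 in the BT474-Var1 and BT474-Var4 cells (adjusted p = 0.00339 and 0.0143). DCN was above background on the BT474-Var4 arrays and FAP on the BT474-Var1 arrays only. Of 6 basal or myoepithelial genes, KRT5 and ACTA2 were above background on no array, and the log2 of the summed level was 1.63 and 1.55 in BT474-Var4 cells against 0.35 to 0.41 elsewhere. OXTR, the oxytocin receptor, read 1.33 and 1.25 in BT474-Var4 cells, most of that sum, and rose there by 1.57 (adjusted p = 0.00292). KRT14, a basal keratin, was called higher in both populations at A_33_P3345534, where neither Control array was above background, at least 2.43-fold and 1.94-fold (adjusted p = 0.00483 and 0.0105), and its other tested probe was 0.12 and 0.29 (adjusted p = 0.767 and 0.486). A_33_P3345534 was tested through the variant arrays alone, where it is high. Its adjusted p rest on Control readings below background and are no further support, and the bound in BT474-Var4 cells is under the 2-fold limit. Of 6 endothelial genes EMCN, KDR and TEK were above background on no array, and the log2 of the summed level ran from 0.87 to 1.5. VWF made up most of it and fell by 0.87 in BT474-Var1 cells at its brightest probe (adjusted p = 0.00577). The part of these lists in the collagen values was not tested. In such bulk samples a smaller share of cells that make a transcript and less of it per cell cannot be told apart.

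The share of collagen probes called was above that of all probes in each comparison and in both directions, a description and not a test of the set. A probe was called at an adjusted p under 0.05 (limma, Benjamini-Hochberg over all fitted probes) and a change of 2-fold or more. In BT474-Var1 against Control cells 8 of 36 collagen probes (22.2%), of 6 genes, were called, where 3.93% of all 31807 fitted probes were. Of these 5 were higher and 3 lower, against 2.77% and 1.16% of all probes. The COL13A1 call among the higher is of a probe tested through the BT474-Var1 arrays alone, where it is high. In BT474-Var4 against Control cells 4 collagen probes (11.1%), of 4 genes, were called, against 3.17% of all probes. Of these 2 were higher and 2 lower, against 1.59% and 1.57%. The COL27A1 call among them, at A_33_P3413168, is of a probe below background on both BT474-Var4 arrays. Its bound against Control was 1.25-fold, under the 2-fold limit. Between the variants, BT474-Var4 against BT474-Var1, the count was 7 (19.4%), of 6 genes, against 6.87%. Of these 3 were higher and 4 lower in BT474-Var4 cells, against 2.27% and 4.59%. Without a minimum fold, 20, 12 and 18 collagen probes had an adjusted p under 0.05, where 34.4%, 24.2% and 41.2% of all probes did. By direction, 8 were higher and 12 lower in BT474-Var1 cells (14.1% and 20.4% of all probes) and 6 were higher and 6 lower in BT474-Var4 cells (9.87% and 14.3%). Between the variants 10 were higher and 8 lower in BT474-Var4 cells (20.5% and 20.8%).

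The median log2 fold change of the collagen probes was 0.00 in BT474-Var1 cells and -0.10 in BT474-Var4 cells, and that of all probes was -0.04 and -0.08. The sign of the collagen median in BT474-Var1 cells changed with the scaling, to -0.10 after quantile normalization, where the median of all probes was -0.05. The size of the changes, without sign, had a median of 0.50 in BT474-Var1 cells and 0.36 in BT474-Var4 cells, against 0.26 and 0.22 for all probes. In all, 13 probes of 11 genes were called in at least 1 of the 3 comparisons. Both comparisons with Control share the same Control arrays, and 1 probe, that of COL7A1, was called in both, in opposite directions.

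**Figure D2:**
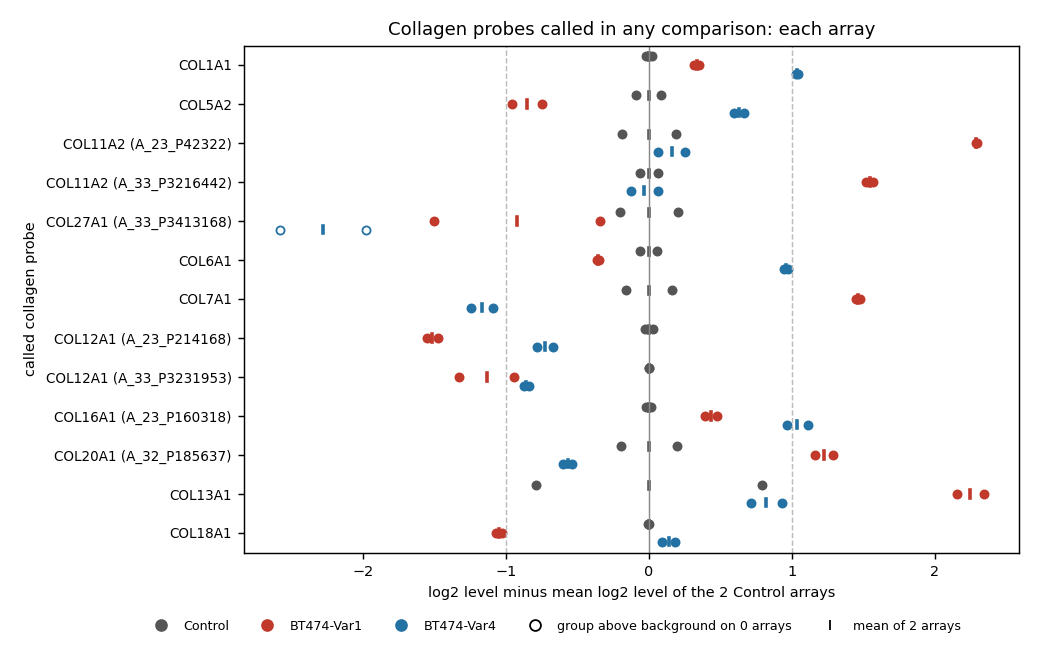
The 13 collagen probes called in any comparison, on every array. The horizontal axis is the log2 level less the mean of the 2 Control arrays, each point is 1 array, ticks are group means, and dashed lines mark 2-fold. Open points are a group above background on neither array. COL7A1 lies to the right in BT474-Var1 and to the left in BT474-Var4 cells, and both COL12A1 probes lie to the left in both.

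COL7A1 encodes the single chain of type VII collagen, the anchoring fibril. Its probe A_23_P144071 (hg19, chr3:48602401-48602588, minus strand) read -0.38 and -0.06 in Control, 1.26 and 1.23 in BT474-Var1 and -1.46 and -1.31 in BT474-Var4 cells. The 3 groups did not overlap, with BT474-Var1 highest and BT474-Var4 lowest. Against Control, the level rose 2.75-fold in BT474-Var1 cells (log2 1.46, SE 0.13; adjusted p = 0.00469) and fell 2.25-fold in BT474-Var4 cells (log2 -1.17, SE 0.13; adjusted p = 0.00895). BT474-Var4 cells had 6.19-fold less than BT474-Var1 cells (log2 -2.63, 95% confidence interval -2.97 to -2.29; adjusted p = 0.00127), the largest difference of any tested collagen probe between the variants. The call in BT474-Var4 cells against Control had an adjusted p of 0.0561 without the filter on dim probes.

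Among fibrillar collagens, 12 tested probes changed by -1.01 to 2.29 in BT474-Var1 and by -2.28 to 1.03 in BT474-Var4 cells on the log2 scale. The lower ends, of COL2A1 and COL27A1 A_33_P3413168, are fitted values of probes below background on both arrays of that variant. COL11A2, a chain of the cartilage collagen type XI, rose in BT474-Var1 cells alone of the comparisons with Control. At probe A_23_P42322 (chr6:33130469-33130509) it read -3.33 and -2.95 in Control, -0.85 and -0.85 in BT474-Var1 and -2.89 and -3.08 in BT474-Var4 cells. Probe A_33_P3216442 (chr6:33130677-33130736) read -1.49 and -1.37, then 0.14 and 0.09, then -1.36 and -1.56. At both probes the BT474-Var1 arrays stood above the other 4, which overlapped. The rise over Control was 4.90-fold (log2 2.29, SE 0.15; adjusted p = 0.00345) and 2.92-fold (log2 1.55, SE 0.09; adjusted p = 0.0031). BT474-Var4 cells differed from Control by 0.16 (adjusted p = 0.477; interval -0.24 to 0.55) and -0.03 (adjusted p = 0.825; interval -0.27 to 0.21).

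The remaining COL11A2 probe did not show the rise. A_33_P3216448 (chr6:33154232-33154291), toward the 5′ end of this minus-strand gene, read 1.84 and 1.69 in Control, 1.46 and 1.43 in BT474-Var1 and 1.74 and 1.61 in BT474-Var4 cells. It fell by 0.32 in BT474-Var1 cells on the log2 scale (adjusted p = 0.0413) and was -0.09 in BT474-Var4 cells (adjusted p = 0.466). The rise of COL11A2 was thus read by the 2 probes that share bases, at the other end of the gene.

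COL1A1 was highest in BT474-Var4 cells. Its probe A_33_P3304668 (chr17:48261509-48261568) read 1.17 and 1.12 in Control, 1.46 and 1.5 in BT474-Var1 and 2.19 and 2.17 in BT474-Var4 cells, with no overlap between groups. The level rose 2.05-fold in BT474-Var4 cells (log2 1.03, SE 0.05; adjusted p = 0.00292) and by 0.34 on the log2 scale in BT474-Var1 cells (adjusted p = 0.0115). The variants differed by 0.70 (adjusted p = 0.00214). COL5A2, a chain of type V collagen, which nucleates type I fibrils, moved apart in the variants. Probe A_23_P33196 (chr2:189897429-189897488) read -0.37 and -0.20 in Control, -1.03 and -1.24 in BT474-Var1 and 0.38 and 0.31 in BT474-Var4 cells. It fell by 0.85 in BT474-Var1 (adjusted p = 0.00761) and rose by 0.63 in BT474-Var4 cells (adjusted p = 0.0203), each under 2-fold. The variants differed 2.80-fold (log2 1.48, SE 0.10; adjusted p = 0.00205).

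COL27A1, a fibrillar chain of cartilage, had 3 probes that read different sizes of a fall. A_33_P3413168 (chr9:116980054-116980113) read -3.79 and -3.38 in Control, -5.09 and -3.93 in BT474-Var1 and -6.17 and -5.56 in BT474-Var4 cells, and was above background on neither BT474-Var4 array and on 1 of the BT474-Var1 arrays. It was at least 1.25-fold lower in BT474-Var4 than in Control cells, with the dim arrays raised to the dimmest level still above background (adjusted p = 0.0314). This call was lost without either Control or either BT474-Var4 array, with adjusted p of 0.0821 to 0.134. A_23_P158096 fell by 0.76 and 0.83 in the BT474-Var1 and BT474-Var4 cells (adjusted p = 0.00469 and 0.00531). A_24_P363896 fell by 0.33 in BT474-Var1 cells (adjusted p = 0.0148) and was -0.10 in BT474-Var4 cells (adjusted p = 0.23).

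The remaining fibrillar probes were those of COL2A1, COL5A1 and COL24A1, and none had an adjusted p under 0.05 against Control. COL2A1, the chain of cartilage type II collagen, was above background on both Control and both BT474-Var4 arrays and on no BT474-Var1 array. Its Control and BT474-Var4 values overlapped, from -3.53 to -1.37. COL24A1 was -0.53 in BT474-Var4 against BT474-Var1 cells (adjusted p = 0.0298), above background on 1 BT474-Var1 array and on neither BT474-Var4 array, which bounds the difference at 1.18-fold or more. The 2 tested COL5A1 probes went opposite ways between the variants, at -0.36 (A_33_P3383351, adjusted p = 0.0133) and 0.36 (A_33_P3629678, adjusted p = 0.0603), and the remaining COL5A1 probe was above background on no array.

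Type IV collagen was called in no comparison, and its chains went different ways. COL4A2 read 1.68 and 1.53 in Control, 1.03 and 1.1 in BT474-Var1 and 1.55 and 1.46 in BT474-Var4 cells. COL4A1, its partner chain, read -2.18 and -2.41, then -1.69 and -1.95, then -2.50 and -2.79. In BT474-Var1 cells the COL4A2 arrays stood below all others and the COL4A1 arrays above all others. COL4A2 fell by 0.54 in BT474-Var1 cells (SE 0.08; adjusted p = 0.0101), and COL4A1 was 0.47 (SE 0.16; adjusted p = 0.0815). Between the variants both passed, COL4A1 at -0.82 (adjusted p = 0.0178) and COL4A2 at 0.44 (adjusted p = 0.0138) in BT474-Var4 against BT474-Var1 cells. The pair that shares the 126 bases printed above thus did not move together in that comparison.

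COL4A4 fell by 0.67 in each variant population (adjusted p = 0.00913 and 0.0136), with both variants' arrays below both Control arrays. COL4A3, its head-to-head neighbor, was above background on no array. COL4A5 rose by 0.69 in BT474-Var4 cells (adjusted p = 0.0143) and was 0.31 in BT474-Var1 cells (adjusted p = 0.0652), while neither probe of its neighbor COL4A6 was above background on any array. COL10A1, a short-chain collagen of growth cartilage, was 0.14 in BT474-Var1 cells and 0.22 in BT474-Var4 cells (adjusted p = 0.148 and 0.0689).

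**Figure D3:**
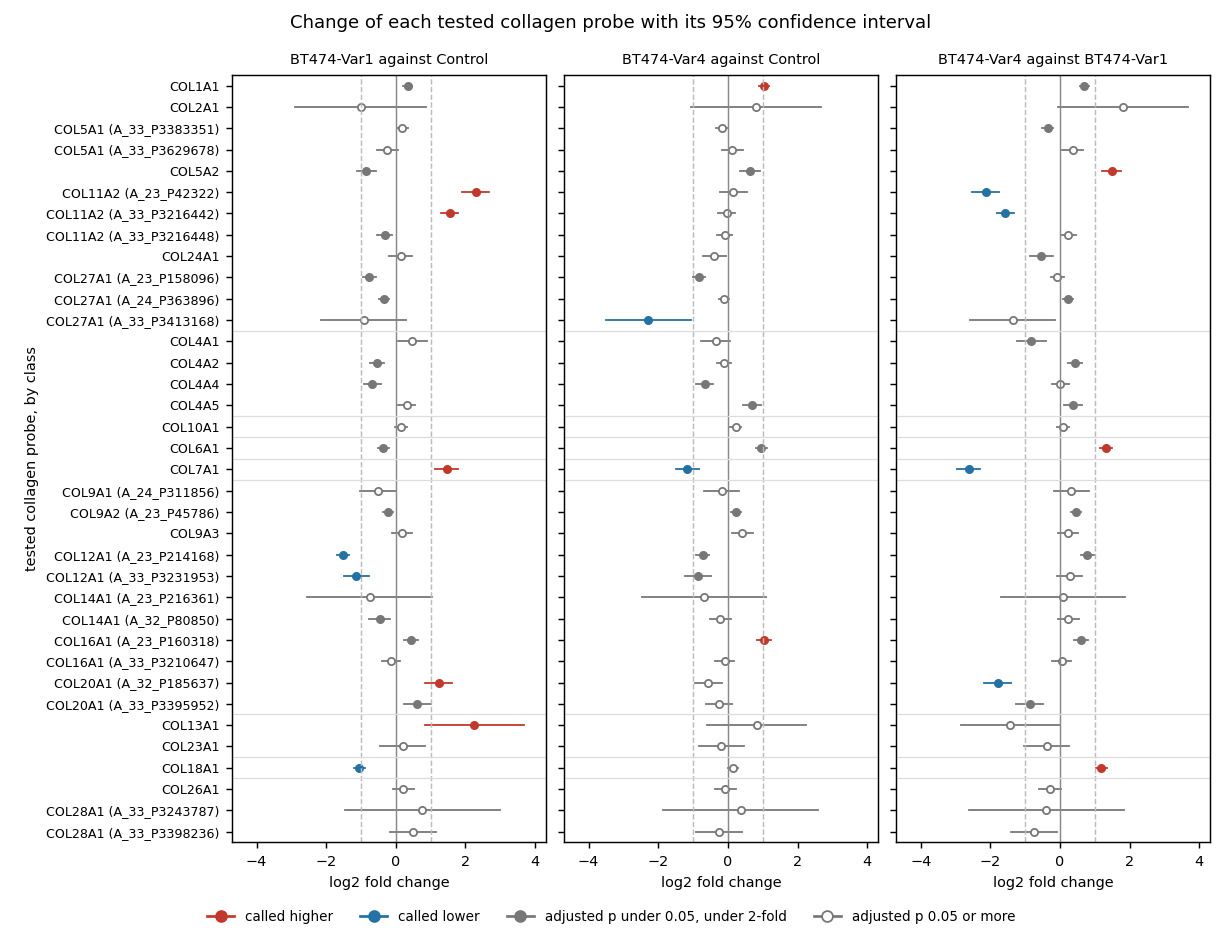
Log2 fold change of the 36 tested collagen probes in the 3 comparisons, with 95% confidence intervals from the fit; gray lines separate the classes and dashed lines mark 2-fold. Red and blue are called probes, 8, 4 and 7 in the 3 panels, and open gray points had an adjusted p of 0.05 or more. The fitted value of a probe that a group read below background, such as COL27A1 A_33_P3413168 in BT474-Var4 cells, is not a measured size.

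COL6A1, a chain of the beaded-filament collagen type VI, was the detected member of its class. Probe A_32_P32254 (chr21:47424836-47424895) read 1.89 and 1.78 in Control, 1.49 and 1.47 in BT474-Var1 and 2.81 and 2.78 in BT474-Var4 cells. The groups did not overlap, and BT474-Var4 was the highest. The level rose by 0.96 in BT474-Var4 (SE 0.06; adjusted p = 0.00387) and fell by 0.35 in BT474-Var1 cells (adjusted p = 0.0164), both under 2-fold. The variants differed 2.49-fold (log2 1.31, SE 0.06; adjusted p = 0.00125). All probes of COL6A2 and COL6A3, whose chains join COL6A1 in the type VI molecule, were below background on the BT474-Var4 arrays.

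Among FACIT collagens, COL12A1 had the clearest fall. COL12A1 encodes type XII collagen, which binds type I fibrils. Probe A_23_P214168 (chr6:75794289-75794348) read 4.93 and 4.99 in Control, 3.48 and 3.41 in BT474-Var1 and 4.18 and 4.29 in BT474-Var4 cells. Probe A_33_P3231953 (chr6:75822928-75822987) read 1.36 and 1.36, then 0.42 and 0.03, then 0.52 and 0.49. At both probes every variant array was below both Control arrays, with the BT474-Var1 arrays lowest. In BT474-Var1 cells the fall was 2.86-fold (log2 -1.52, SE 0.07; adjusted p = 0.00269) and 2.20-fold (log2 -1.13, SE 0.14; adjusted p = 0.00739). Without BT474-Var1 replicate B the second was -0.94, under 2-fold. In BT474-Var4 cells it was smaller than 2-fold at both, by 0.73 (adjusted p = 0.0066) and 0.86 (adjusted p = 0.019). The variants differed by 0.79 at the first probe (adjusted p = 0.00289) and by 0.28 at the second (adjusted p = 0.17; interval -0.08 to 0.64).

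COL20A1 encodes type XX collagen. Probe A_32_P185637 (chr20:61962227-61962285) read -1.36 and -1.75 in Control, -0.26 and -0.39 in BT474-Var1 and -2.15 and -2.09 in BT474-Var4 cells, with no overlap. It rose 2.34-fold in BT474-Var1 cells (log2 1.23, SE 0.15; adjusted p = 0.00738) and was -0.57 in BT474-Var4 cells (adjusted p = 0.0557). The variants differed 3.47-fold (log2 -1.79, SE 0.15; adjusted p = 0.00269). The helix probe printed above, A_33_P3395952, read -1.96 and -1.59, then -1.19 and -1.14, then -2.12 and -1.95. It gave the same direction at a smaller size, with a rise of 0.61 in BT474-Var1 cells (adjusted p = 0.0342) and -0.87 between the variants (adjusted p = 0.0122). Its value in BT474-Var4 cells was -0.26 (adjusted p = 0.256). The remaining COL20A1 probe was above background on 1 Control array and was not tested.

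COL16A1 encodes type XVI collagen, a minor fibril-associated chain. Probe A_23_P160318 (chr1:32118175-32118234) read 0.33 and 0.29 in Control, 0.70 and 0.78 in BT474-Var1 and 1.42 and 1.27 in BT474-Var4 cells, in that order with no overlap. It rose 2.05-fold in BT474-Var4 cells (log2 1.04, SE 0.07; adjusted p = 0.00447) and by 0.43 in BT474-Var1 cells (adjusted p = 0.0156). Without BT474-Var4 replicate A the rise in BT474-Var4 cells was 0.96, below 2-fold. The helix probe A_33_P3210647 read 0.12 and 0.18, then -0.12 and 0.14, then 0.05 and 0.06, and its groups lay within a narrow range. It differed from Control by -0.14 (adjusted p = 0.346; interval -0.41 to 0.13) and -0.09 (adjusted p = 0.543; interval -0.36 to 0.18), so the rise was seen at 1 of the 2 probes.

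No other FACIT probe was called. COL9A2, a chain of type IX collagen, fell by 0.23 in BT474-Var1 (adjusted p = 0.0348) and rose by 0.23 in BT474-Var4 cells (adjusted p = 0.0484), with 0.46 between the variants (adjusted p = 0.00576). COL14A1, type XIV collagen, fell by 0.46 in BT474-Var1 cells at A_32_P80850 (adjusted p = 0.0399). Its other probe, A_23_P216361, was above background on both Control arrays, 1 BT474-Var1 array and no BT474-Var4 array, and had no adjusted p under 0.05. The helix probe of COL9A1 was -0.51 in BT474-Var1 cells (adjusted p = 0.111; interval -1.02 to 0.01) and -0.18 in BT474-Var4 cells (adjusted p = 0.533), and COL9A3 was 0.18 and 0.41 (adjusted p = 0.277 and 0.0625).

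COL13A1 encodes type XIII collagen, a transmembrane chain found at cell contacts. Probe A_23_P1331 (chr10:71718811-71718870) read -5.45 and -3.87 in Control, -2.31 and -2.50 in BT474-Var1 and -3.94 and -3.73 in BT474-Var4 cells. It was above background on both BT474-Var1 arrays and on 1 array each of Control and BT474-Var4, and the BT474-Var1 arrays were the highest. The probe was thus tested through the BT474-Var1 arrays alone, where it is high. The rise in BT474-Var1 cells was 4.76-fold in the fit (log2 2.25, SE 0.54; interval 0.83 to 3.67; adjusted p = 0.0355). Control replicate A lay below the dimmest level above background of its array (-4.26), so this is not a measured size. The call was lost with no filter on dim probes (adjusted p = 0.106), in the one-way analysis of variance (adjusted p = 0.106) and with 2 groups per fit (adjusted p = 0.0698). Without Control replicate A the change was 1.46, and the call was lost without any one of the variant arrays (adjusted p of 0.0698 to 0.127). COL23A1, another transmembrane chain, was 0.19 and -0.19 in the variants (adjusted p = 0.579 and 0.602).

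COL18A1 encodes type XVIII collagen, the multiplexin whose end fragment is endostatin. Probe A_23_P211212 (chr21:46933558-46933617) read 2.45 and 2.44 in Control, 1.38 and 1.42 in BT474-Var1 and 2.63 and 2.54 in BT474-Var4 cells. The BT474-Var1 arrays stood apart below the others. The level was 2.07-fold lower in BT474-Var1 cells (log2 -1.05, SE 0.06; adjusted p = 0.00294), and the fall was 0.97 on the log2 scale after quantile normalization, just under 2-fold. BT474-Var4 cells were at 0.14 (adjusted p = 0.146; interval -0.01 to 0.29). The variants differed 2.27-fold (log2 1.19, SE 0.06; adjusted p = 0.00127). The probes of COL26A1 and COL28A1 changed by 0.22 to 0.76 in BT474-Var1 and -0.25 to 0.37 in BT474-Var4 cells, and none had an adjusted p under 0.05.

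Genes that modify, export, bind or break down collagen were taken from a list of 60 genes in 8 roles, with 1 probe per gene, and 48 of them were tested. In BT474-Var1 against Control cells 3 (6.25%) were called, 2 higher and 1 lower, against 3.93% of all probes. At an adjusted p under 0.05 with no minimum fold there were 20 (41.7%), 6 higher and 14 lower, against 34.4%. In BT474-Var4 cells 2 (4.17%) were called, both higher, against 3.17%, and 14 (29.2%) had an adjusted p under 0.05, 10 higher and 4 lower, against 24.2%. Their median log2 fold change was -0.10 and 0.04, against -0.04 and -0.08 for all probes. Between the variants 6 (12.5%) were called, 5 higher and 1 lower in BT474-Var4 cells, against 6.87%. At an adjusted p under 0.05 there were 24 (50%), 17 higher and 7 lower, against 41.2% of all probes (20.5% and 20.8%). The shares called and passed against Control were thus near those of all probes. The counts by role below rest on 4 to 10 tested genes each, where 14.1% of all probes passed upward and 20.4% downward in BT474-Var1 cells and 9.87% and 14.3% in BT474-Var4 cells. For 10 of the genes another 16 probes were tested, of which 1, 1 and 4 were called in the 3 comparisons, and these are given with their genes.

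Prolyl hydroxylases stabilize the helix, and 9 of their 10 genes were tested. In BT474-Var1 cells 1 passed the adjusted p upward and 3 downward, and in BT474-Var4 cells 3 upward and 2 downward. P4HA1, the catalytic subunit of prolyl 4-hydroxylase, read 1.96 and 2.0 in Control, 3.37 and 3.33 in BT474-Var1 and 2.76 and 2.62 in BT474-Var4 cells. It rose 2.59-fold in BT474-Var1 (log2 1.37, SE 0.07; adjusted p = 0.00289) and in BT474-Var4 cells by 0.71 (adjusted p = 0.00703). P3H2, a prolyl 3-hydroxylase of basement membrane collagen, read 1.00 and 0.90, then -0.42 and -0.48, then 0.97 and 0.81. It fell 2.62-fold in BT474-Var1 cells (log2 -1.39, SE 0.08; adjusted p = 0.0031) and was -0.05 in BT474-Var4 cells (adjusted p = 0.663). P4HA2, an alternative catalytic subunit, had 3 tested probes, which rose by 0.83, 0.75 and 1.19 in BT474-Var4 cells (A_23_P30363, A_22_P00021933 and A_33_P3394933; adjusted p = 0.00372, 0.00506 and 0.0174). In BT474-Var1 cells A_22_P00021933 fell by 0.37 (adjusted p = 0.0123) and the others were -0.11 and -0.24 (adjusted p = 0.169 and 0.366). Between the variants they differed by 0.94, 1.12 and 1.43 (adjusted p = 0.00142, 0.00132 and 0.00661). P4HB, the shared subunit, was -0.15 and -0.06 at its brighter probe (adjusted p = 0.274 and 0.638), while A_23_P107412 fell by 0.40 in BT474-Var1 cells (adjusted p = 0.0111). PPIB, which speeds helix folding, fell by 0.78 and 0.53 (adjusted p = 0.00739 and 0.0239). P3H4, a partner of prolyl 3-hydroxylases, was 0.09 in BT474-Var1 cells (adjusted p = 0.363) and rose by 0.85 in BT474-Var4 cells (adjusted p = 0.00576).

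Lysyl hydroxylases and collagen galactosyltransferases prepare chains for cross-links and sugars, and 4 of their 5 genes were tested. In BT474-Var1 cells 1 passed upward and 2 downward, and in BT474-Var4 cells 2 passed, both upward. PLOD3 rose by 0.67 (adjusted p = 0.00448) and PLOD1 by 0.72 (adjusted p = 0.00872) in BT474-Var4 cells, and PLOD2 rose by 0.52 in BT474-Var1 cells (adjusted p = 0.00589). PLOD3 fell by 0.24 and COLGALT1 by 0.32 in BT474-Var1 cells (adjusted p = 0.0224 and 0.0283). The other COLGALT1 probe was -0.39 there (adjusted p = 0.217), and the other PLOD1 probe was 0.83 in BT474-Var4 cells (adjusted p = 0.0512). SERPINH1, the collagen chaperone HSP47, read 4.90 and 4.98 in Control, 4.20 and 4.19 in BT474-Var1 and 5.62 and 5.71 in BT474-Var4 cells. It fell by 0.75 in BT474-Var1 (adjusted p = 0.00435) and rose by 0.72 in BT474-Var4 cells (adjusted p = 0.00573), so that the variants differed 2.77-fold (log2 1.47, SE 0.06; adjusted p = 0.0012). Its groups did not overlap. The other 5 tested chaperone and export genes, among them SEC23A, MIA3, MIA2 and SEC24D of the coat and cargo machinery that carries procollagen out of the endoplasmic reticulum, ranged from -0.36 to 0.39 in BT474-Var1 and from -0.09 to 0.27 in BT474-Var4 cells. MIA3 rose at 3 of its 5 tested probes (0.39, 0.60 and 0.55; adjusted p = 0.0257, 0.00743 and 0.0069; the others -0.06 and 0.02) and SEC23A and MIA2 fell (-0.22 and -0.36; adjusted p = 0.0439 and 0.0113) in BT474-Var1 cells.

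BMP1, which removes the C-terminal propeptide, was near the limit of detection at -3.04 and -2.81 in Control, -3.36 and -4.00 in BT474-Var1 and -2.38 and -2.91 in BT474-Var4 cells, and was above background on 5 of the 6 arrays. It was called between the variants (log2 1.03, SE 0.29; adjusted p = 0.0477), a call lost without any one array but BT474-Var1 replicate A (adjusted p of 0.0648 to 0.161). The other 3 tested of 8 genes of propeptide removal had no adjusted p under 0.05. Among cross-linking enzymes of the lysyl oxidase family, LOXL2 rose by 0.69 and 0.63 in the BT474-Var1 and BT474-Var4 cells (adjusted p = 0.0064 and 0.0111). LOXL3 fell by 0.60 and 0.36 (adjusted p = 0.00433 and 0.0134; its other probe by 0.44 in BT474-Var1 cells, adjusted p = 0.0288, and -0.14 in BT474-Var4 cells) and LOXL4 by 0.54 and 0.78 (adjusted p = 0.00657 and 0.00515), while LOX itself was not tested. LOXL1 was -0.18 (adjusted p = 0.255) and rose by 0.50 (adjusted p = 0.0336).

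Of 6 genes of proteins that bind fibrils 5 were tested, and DCN (decorin) was above background on the BT474-Var4 arrays only. Probe A_23_P64873 read -5.95 and -4.80 in Control, -4.20 and -5.03 in BT474-Var1 and -1.35 and -1.75 in BT474-Var4 cells, where it was at least 7.11-fold above Control (adjusted p = 0.0125) and at least 5.55-fold above BT474-Var1 cells (adjusted p = 0.0113). It was tested through the BT474-Var4 arrays alone, where it is high. These adjusted p rest on readings below background and are no further support. The other DCN probe was above background on no array, and the call against Control was lost without either BT474-Var4 array or without Control replicate A (adjusted p of 0.0514 to 0.0596). The call against BT474-Var1 cells was lost without BT474-Var4 replicate A (adjusted p = 0.0549). FMOD (fibromodulin) fell by 0.29 in BT474-Var1 cells (adjusted p = 0.0184) and was -0.16 in BT474-Var4 cells (adjusted p = 0.0924). The 4 tested probes of TNXB (tenascin X) did not move together. In BT474-Var1 cells A_23_P156708 rose by 1.24 (adjusted p = 0.00374) and A_33_P3381338 by 0.75 (adjusted p = 0.0105), the brightest, A_33_P3364582, fell by 0.27 (adjusted p = 0.0228), and A_33_P3364571 was -0.10 (adjusted p = 0.641). Against BT474-Var1 cells the BT474-Var4 level of A_23_P156708 was -1.42 (adjusted p = 0.00164), and no TNXB probe passed in BT474-Var4 cells against Control.

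Of 11 collagen receptor genes 10 were tested and 1 was called. In BT474-Var1 cells 2 passed the adjusted p upward and 1 downward. ITGA10, the alpha chain of a collagen-binding integrin, read -3.52 and -3.26 in Control, -2.11 and -2.27 in BT474-Var1 and -3.40 and -3.46 in BT474-Var4 cells. It rose 2.30-fold in BT474-Var1 cells (log2 1.20, SE 0.11; adjusted p = 0.00507) and was -0.05 in BT474-Var4 cells (adjusted p = 0.796). ITGA2, another such chain, named after its values were seen as the receptor gene that fell, fell by 0.86 in BT474-Var1 cells (adjusted p = 0.0107). DDR1, a receptor kinase for collagen, was -0.02 and 0.14 at its brighter probe (adjusted p = 0.835 and 0.167), while A_33_P3264163 fell by 0.59 in BT474-Var1 cells (adjusted p = 0.0497). OSCAR, a collagen receptor of osteoclasts, was -0.08 and 0.08 at its brighter probe (adjusted p = 0.467 and 0.527). Its other probe, A_23_P50368, rose by 0.97 in BT474-Var1 cells (adjusted p = 0.00289) and was called between the variants (-1.02; adjusted p = 0.00125). ITGB1, the beta chain of the collagen-binding integrins, was -0.26 and 0.09 (adjusted p = 0.0648 and 0.433). GP6, the platelet collagen receptor, rose by 0.39 in BT474-Var1 cells (adjusted p = 0.0225) and was -0.30 in BT474-Var4 cells (adjusted p = 0.0527).

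Of 6 tested genes of collagen breakdown, MMP1, the interstitial collagenase, was called in BT474-Var4 cells. It read -4.32 and -4.19 in Control, -4.67 and -4.60 in BT474-Var1 and -2.26 and -2.52 in BT474-Var4 cells and was above background on the BT474-Var4 arrays only. The level there was at least 3.56-fold above Control (adjusted p = 0.00334) and at least 3.11-fold above BT474-Var1 cells (adjusted p = 0.00127). As for DCN, these adjusted p rest on readings below background, and MMP1 was tested through the BT474-Var4 arrays alone. MMP13, another collagenase, was 1.16 in BT474-Var4 cells (adjusted p = 0.0678), and MMP9 was 0.02 and -0.07 (adjusted p = 0.938 and 0.813). PEPD, which recycles proline from collagen fragments, was -0.08 and 0.29 (adjusted p = 0.564 and 0.11). CTSK (cathepsin K), a lysosomal collagenase, was 0.55 and -0.02 (adjusted p = 0.0597 and 0.928).

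**Figure D4:**
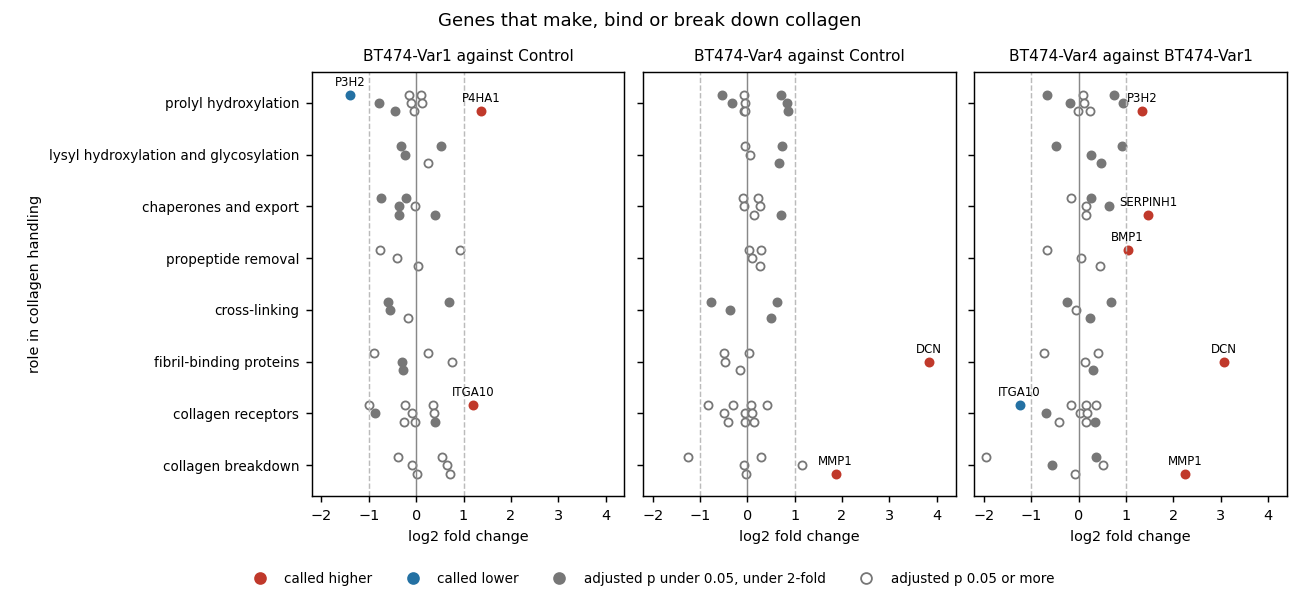
Log2 fold change of the 48 tested genes that make, bind or break down collagen, by role, in the 3 comparisons. Each point is 1 gene, named where called; small vertical offsets only separate points. DCN and MMP1 were above background on the BT474-Var4 arrays only, so their fitted values, drawn here, are not measured sizes. Their bounds were 7.11-fold and 3.56-fold against Control and 5.55-fold and 3.11-fold against BT474-Var1 cells.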

How the data were processed

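Cy3-labeled RNA was read on 6 one-color arrays of 1 slide. The deposited intensity files hold spot values that the authors made with Feature Extraction 11.5.1.1, which subtracted background. The deposited log2 table holds the values that the authors shifted to the 75th percentile of each array. The file headers give another array design than the methods and place probes on hg19; exon and transcript positions on that build were not used here.

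The processed intensity of non-control spots was log2-transformed and lowered by each array's 75th percentile, outlier spots (63 to 128 per array) were left out and spots of a probe averaged; 0 were saturated. Probes well above background on each of the 2 arrays of a group, in 1 group or more (31858), were tested, and 31807 of them, with a value on every array, were fitted with a mean per group over all 6 arrays by limma 3.58.1 in R 4.3.3. Moderated p-values had 3 residual and 1.53 prior degrees of freedom and were adjusted over all fitted probes (Benjamini-Hochberg). Where a group was above background on neither array, its arrays were raised to their dimmest level above background and a bound was given. The adjusted p of such a comparison still rests on the readings below background. The 95% intervals come from the same fit. Figures and tables used Python 3.11.15. Tested on simulated data of the BT474-Var1 against Control comparison with 31807 probes, the pipeline recovered 88.5% and 86.5% of 200 probes shifted by 2 log2 units, with 5 and 1 false calls. The number of arrays limits the precision.

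No pairing by the letters A and B was seen: their deviations correlated at -0.01, 0.05 and -0.02 across groups. A shared effect that is small beside the noise of the arrays would not be seen in this way. The BT474-Var1 arrays lay in slide column 2 and the others in column 1, so that column and BT474-Var1 cannot be told apart. Control arrays lay in rows 1 and 2 and the arrays of both variants in rows 3 and 4. Row and the difference of either variant from Control cannot be told apart either. Of the NR2F1-AS1 probes, A_19_P00320140 was at least 15.1-fold above Control in BT474-Var1 cells, and A_24_P51080 was above background on both BT474-Var4 arrays and on neither BT474-Var1 array.

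The members, gene lists and tests were chosen with earlier results of these data known. Full values are given for every collagen probe called in any comparison, values for those past the adjusted p and for further probes of a called gene, and, of the collagen-handling genes, for called genes and at most 4 more per role, the brightest by mean, with further tested probes of those genes where they differ; ITGA2 was named outside this rule. Alternatives were normexp background correction (offset 50), quantile normalization, 2 other filters on dim probes, the replicate letter as a block, the deposited table, another variance model, 2 groups per fit, each array left out, the methods' one-way analysis of variance, other thresholds, distinct genes and the mean over a gene's probes.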

Additional observations from a re-analysis of the deposited data

Results flagged for a closer look

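For 7 of 36 tested collagen probes (19.4%) the change against Control differed between the variant populations, where it did for 6.87% of all probes. The test was the direct one of BT474-Var4 against BT474-Var1 cells (limma, adjusted p under 0.05 and 2-fold or more). This contrast equals the difference between both changes against the shared Control arrays. COL7A1 gave the largest, log2 -2.63 (adjusted p = 0.00127), and its changes against Control were opposite in sign. COL11A2 gave -2.13 at A_23_P42322 (adjusted p = 0.00203) and -1.58 at A_33_P3216442 (adjusted p = 0.00154), which share bases, and COL20A1 gave -1.79 at A_32_P185637 (adjusted p = 0.00269). COL5A2 (1.48; adjusted p = 0.00205), COL6A1 (1.31; adjusted p = 0.00125) and COL18A1 (1.19; adjusted p = 0.00127) were higher in BT474-Var4 cells. In each of the 7, both arrays of one population lay above both of the other. The choice of these probes by the same contrast makes that likely in advance, so it is no further support.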

How the results depend on the processing

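The counts of called collagen probes were 8 for BT474-Var1 against Control, 4 for BT474-Var4 against Control and 7 between the variants. In that order they went to 2, 0 and 3 under normexp background correction, where 0.534%, 0.478% and 1.14% of all probes were called. In BT474-Var4 cells 16 collagen probes then had an adjusted and 16 an unadjusted limma p under 0.05. Each called collagen result that it brought under 2-fold kept an adjusted p under 0.05, and its offset is added to every intensity, which lowers folds of dim probes. With no minimum fold the counts were 20, 12 and 18. With no filter on dim probes the BT474-Var4 count was 2, where 0.847% of all probes were called. COL8A1, above background on no array, then had a log2 change of 2.04 in BT474-Var1 cells (adjusted p = 0.0413). With the filter on all 6 arrays the collagen counts were 7, 3 and 7, where 2.52%, 2.13% and 4.54% of all probes were called. Leaving out 1 array gave 6 to 8, 3 to 4 and 8. Counts of collagen-handling genes (3, 2 and 6) were 1, 0 and 1 under normexp, 20, 14 and 24 with no minimum fold, 0 and 2 for the last pair of comparisons with the filter on all 6 arrays (at an unadjusted limma p under 0.05, 23 genes in BT474-Var4 cells under normexp and 20 under that filter), and 1 in BT474-Var4 cells with no filter on dim probes; leaving out 1 array gave 3 to 5, 1 to 3 and 4 to 7. With the replicate letter as a block, although no pairing by the letters was seen, the collagen counts were 7, 4 and 8, and the calls of COL13A1 (adjusted p = 0.0506) and BMP1 (adjusted p = 0.0549) were lost. Of 283 repeats of the 19 called collagen results, 251 kept the call, 32 lost it and 0 turned; of 158 repeats of the 11 others, 134 kept it, 24 lost it and 0 turned. Every collagen probe past the adjusted p kept its sign under quantile normalization, normexp and the deposited table. A slide or scan block could not be fitted, with 1 slide and 1 scan. Beyond COL13A1, COL27A1 and COL7A1 in BT474-Var4 cells, the called collagen results kept an adjusted p under 0.05 in all alternatives run; the cause of other changes was not tested. Signal over background limits what can be read for the 28 collagen probes that were not tested.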
